A study of Mus musculus with 2 samples.

Results

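Dual-specificity MAP kinase phosphatases were examined in mouse cells labelled GT1-7 after short exposure to gonadotropin-releasing hormone (GnRH). The genes were chosen by name, as the non-control spots whose gene name in the array file was Dusp1, Dusp2, Dusp4, Dusp5, Dusp6, Dusp7, Dusp8, Dusp10, Dusp14 or Dusp16. All 10 had a probe, and together they had 13 probes of 1 spot each, out of 35017 named genes or transcripts and 59305 non-control spots. The data were 2 arrays of the 1-colour kind, hybridised with Cy3-labelled RNA. The GnRH group, 1 array, had received 50 nM of the peptide for 30 min, and the vehicle group, 1 array, had received DMSO for 30 min. GT1-7 is an immortalised mouse line described in the labels as cultured hypothalamic neurons, and no label gives a passage, a clone or a number of cultures. A free-text field of both samples names bradykinin and the A549 line instead, so the groups follow the treatment labels. Of the cell markers checked, Gnrh1, which defines GnRH neurons, read 10.3 in the GnRH array and 7.94 in the vehicle array and did not clear the background of either. Genes used as markers of pituitary gonadotropes were mixed. Cga read 69481 in the GnRH array and 80508 in the vehicle array, Gnrhr 13656 in the GnRH array and 14861 in the vehicle array, and Nr5a1 and Pitx1 were also bright. The hormone beta subunit genes were not. Lhb read 72.1 in the GnRH array and 71.5 in the vehicle array. Fshb, at 5.69 in the GnRH array and 3.80 in the vehicle array, did not clear the background. The cells are therefore called only by their label. With 1 array per group no test across cultures was possible, and every difference below describes these 2 arrays.

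MAP kinase phosphatases remove phosphate from both the threonine and the tyrosine of the activation loop of MAP kinases and so switch them off. Several of their genes are themselves induced by MAP kinase signalling, which makes them negative feedback regulators, and GnRH receptors are known to activate MAP kinases in pituitary gonadotropes. The family is usually divided by place and substrate. Dusp1, Dusp2, Dusp4 and Dusp5 encode inducible enzymes of the nucleus. Dusp6 and Dusp7 encode cytoplasmic enzymes that prefer ERK. Dusp8, Dusp10 and Dusp16 encode enzymes that prefer JNK and p38 and are found in either compartment. Dusp14 encodes an atypical small enzyme without the amino-terminal kinase-binding domain.

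The nuclear enzyme gene Dusp5 had the largest difference of the family, followed by the cytoplasmic enzyme gene Dusp6. Dusp1 was also over 2-fold higher in the GnRH array, but at a spot many of whose neighbours were higher too. Dusp2, Dusp4, Dusp8 and Dusp10 were 1.5- to 1.87-fold higher, and Dusp7, Dusp14 and Dusp16 differed little. Differences are GnRH minus vehicle on the log2 scale, after each array was divided by its 75th percentile. In such bulk RNA a change in the share of cells and a change in RNA per cell cannot be told apart. The error given is the scanner software's own, for the GnRH and vehicle readings together. It covers the reading of a spot and not the variation between cultures, labellings or hybridisations. For bright spots it mostly reflects the software's multiplicative setting of 0.1.

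**Figure D1:**
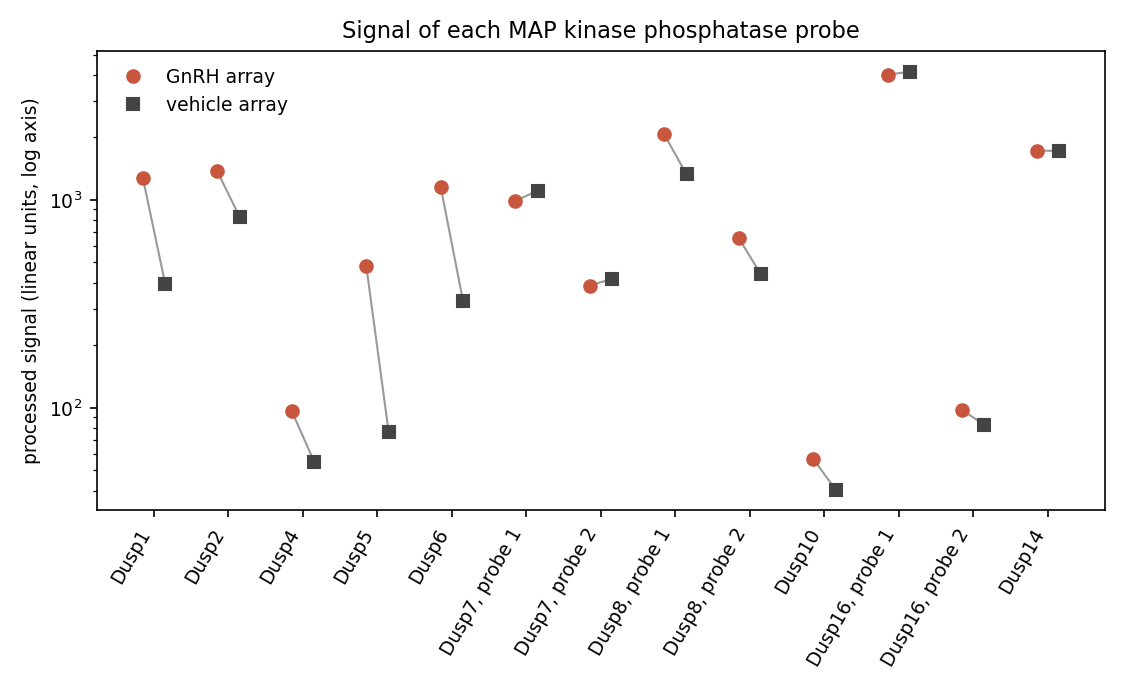
Processed signal of each of the 13 probes in the GnRH array (circles) and the vehicle array (squares), on a log axis in linear intensity units and before scaling. A grey line joins the values of a probe. Dusp5, Dusp6 and Dusp1 have the steepest lines, and both probes of Dusp7 were lower in the GnRH array before scaling.

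Dusp5 encodes a nuclear phosphatase selective for ERK. Its probe had a processed signal of 481 in the GnRH array and 76.8 in the vehicle array. The log2 difference was 2.74 ± 0.22, or 6.69-fold, which placed Dusp5 at position 14 of the 21219 genes measured, that is with a probe clear of background in the GnRH and in the vehicle array. Among the 1000 other genes closest to it in mean signal, 1 had a difference as high, and the central 95% of those genes ran from -0.35 to 0.36. The probe lies on chr19:53615682-53615741 (build mm9, plus strand), and its bases are shown as the whole measured target for the largest difference of the family.
Dusp5 probe: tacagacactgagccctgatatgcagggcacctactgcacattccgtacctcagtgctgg
The promoter of Dusp5 in RefSeq (GRCm38.p6, chr19:53528895-53529194, plus strand, from 250 bases before to 50 after the start site) is shown with searched motifs in capitals.
Dusp5 promoter: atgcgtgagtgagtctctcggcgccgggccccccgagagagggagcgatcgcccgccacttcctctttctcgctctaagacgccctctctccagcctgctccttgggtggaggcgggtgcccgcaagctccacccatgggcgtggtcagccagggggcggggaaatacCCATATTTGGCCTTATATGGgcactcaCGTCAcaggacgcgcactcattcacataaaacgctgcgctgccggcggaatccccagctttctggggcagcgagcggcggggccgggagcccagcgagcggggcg
A pair of adjoining CArG boxes, the sequence bound by serum response factor, begins 82 and 72 bases before the start site. The CArG box occurred in 1.63% of 32841 promoters of this length and in the Dusp5 promoter alone among the 9 family promoters in the table, which holds none for Dusp4. A single TGACG, on the minus strand, begins 55 bases before the start site.

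Dusp6 encodes the cytoplasmic phosphatase that binds and inactivates ERK. Its signal was 1152 in the GnRH array and 325 in the vehicle array, a log2 difference of 1.92 ± 0.20, or 3.78-fold. Dusp6 stood at position 32 of all measured genes, and 2 of the 1000 genes of nearest signal were as high. The probe lies on chr10:98729985-98730044 (mm9, plus strand), and the first 30 of its 60 bases are given to identify the target.
Dusp6 probe, first 30 bases: catttggtggatgcaacaggttgagaggaa
The Dusp6 promoter (GRCm38.p6, chr10:99262981-99263280, plus strand) is shown for comparison with that of Dusp5. It held none of the 6 motifs, which says only that those letters are not in this window.
Dusp6 promoter: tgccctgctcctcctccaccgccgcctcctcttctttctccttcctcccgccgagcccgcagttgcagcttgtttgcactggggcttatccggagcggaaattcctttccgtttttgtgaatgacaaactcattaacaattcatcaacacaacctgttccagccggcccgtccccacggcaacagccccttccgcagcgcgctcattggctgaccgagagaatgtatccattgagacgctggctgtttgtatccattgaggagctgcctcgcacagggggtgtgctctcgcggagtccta
The other cytoplasmic enzyme gene, Dusp7, did not share the difference. Its brighter probe read 988 in the GnRH array and 1109 in the vehicle array, a log2 difference of -0.07 ± 0.20 after scaling. Its other probe read 387 in the GnRH array and 417 in the vehicle array, a difference of -0.01 ± 0.20. These probes, on chr9:106277985-106278044 and chr9:106277943-106278000 (mm9), overlap by 16 bases and share part of their target.

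Dusp1 encodes the prototype nuclear phosphatase, an immediate-early gene product that acts on p38, JNK and ERK. Its only probe read 1278 in the GnRH array and 395 in the vehicle array. The log2 difference was 1.79 ± 0.20, or 3.45-fold, at position 34 of all measured genes. The array file gives the probe on chr17:26642526-26642536 (mm9, minus strand), a span of 11 bases for a probe of 60, so the rest of the target has no coordinates there. The first 30 bases identify it.
Dusp1 probe, first 30 bases: gcgtatgagagtttttacctttatttattt
The Dusp1 promoter (GRCm38.p6, chr17:26508423-26508722, minus strand, printed in the gene's direction) held the full cAMP response element TGACGTCA, in capitals, 143 bases before the start site, and a separate TGACG, also in capitals, 191 bases before it.
Dusp1 promoter: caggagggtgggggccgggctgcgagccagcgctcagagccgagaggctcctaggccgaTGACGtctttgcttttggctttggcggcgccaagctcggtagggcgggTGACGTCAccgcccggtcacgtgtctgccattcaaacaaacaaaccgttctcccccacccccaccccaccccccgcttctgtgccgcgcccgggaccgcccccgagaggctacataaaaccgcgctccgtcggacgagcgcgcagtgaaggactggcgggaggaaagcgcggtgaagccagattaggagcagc
TGACGTCA reads the same on both strands, each of which also counts as a TGACG. It occurred in 1.79% of the 32841 promoters, and in 2 of the 9 family promoters, those of Dusp1 and Dusp8. The shorter TGACG occurred in 5 of the 9, those of Dusp1, Dusp2, Dusp5, Dusp8 and Dusp16, and in 20.8% of all promoters. GCGNGGGCG, the letters bound by Egr1, occurred in those of Dusp2 and Dusp16 and in 5.55% of all, and the ETS core CCGGAA in that of Dusp14 and in 14.9% of all. The AP-1 site TGANTCA occurred in 0 of the 9 and in 7.81% of all. The promoters of Dusp7 and Dusp10, like that of Dusp6, held none of the 6.

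**Figure D2:**
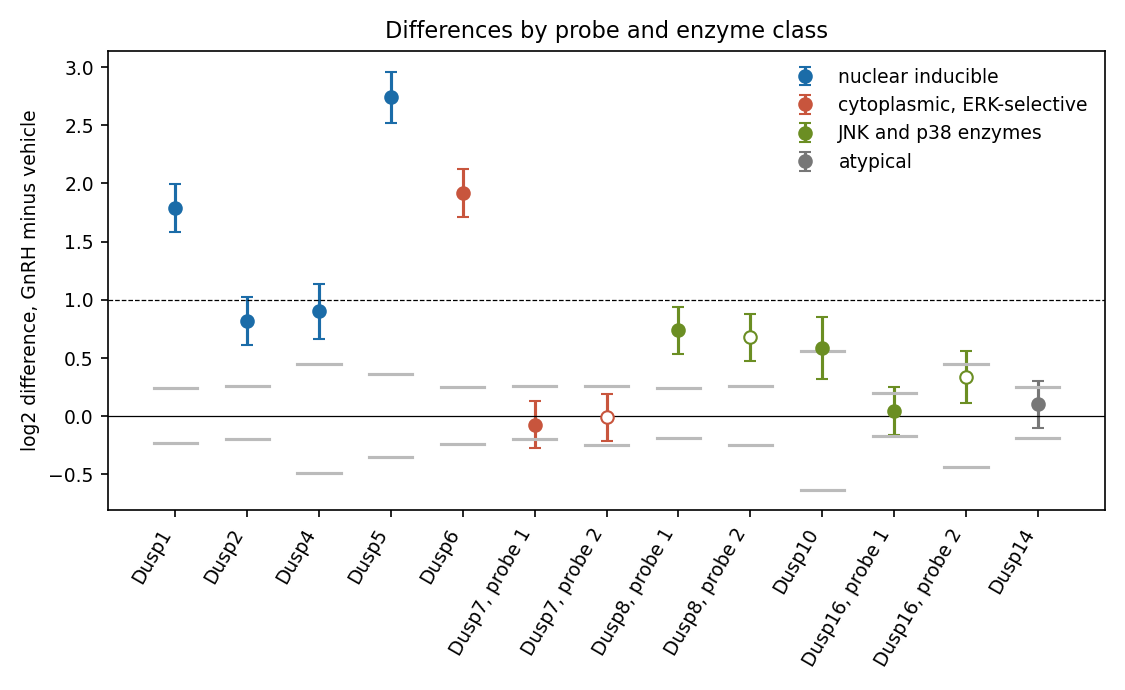
Log2 difference, GnRH minus vehicle, of each probe, coloured by enzyme class, with the scanner error as bars. Filled circles are the probe used for the gene and open circles its other probe; grey marks bound the central 95% of the 1000 genes of nearest signal and the dashed line marks 2-fold. Dusp5, Dusp6 and Dusp1 lie above the dashed line.

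The surroundings of the Dusp1 spot differed between the arrays. All 8 spots within 1 row and column of it were higher in the GnRH array, by log2 differences of 0.06 to 7.11. Their median was 2.78, and 5 of them exceeded Dusp1 itself. These 8 are not the nearest by position. Gzf1 and Sesn1, 2 rows away in the same column, were nearer than some of them and differed by 0.51 and -0.07. The median over the 21 usable spots within 2 rows and columns was 1.33, and 10 of these were as high as Dusp1. It was 0.66 over the 43 spots within 3 rows and columns and 0.43 over the 72 within 4. By comparison the central 95% of all 59305 non-control spots had a neighbour median, within 2 rows and columns, of -0.17 to 0.06, and 0.105% had one as high as that of Dusp1.

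The neighbours were unrelated genes. Foxr1, a forkhead gene, read 1295 in the GnRH array and 25.5 in the vehicle array, and its spot lies 1 column after that of Dusp1. A lincRNA interval 1 row before and 1 column after Dusp1 read 1516 in the GnRH array and 39.8 in the vehicle array. Tbx19, a pituitary T-box gene, read 1048 in the GnRH array and 8.08 in the vehicle array, where it was not well above background. Rrad, which encodes a small GTPase, read 79.9 in the GnRH array and 9.24 in the vehicle array, where it too was not well above background. Pex2, a peroxisome gene, was bright and close to equal at 2344 in the GnRH array and 2395 in the vehicle array.

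**Figure D3:**
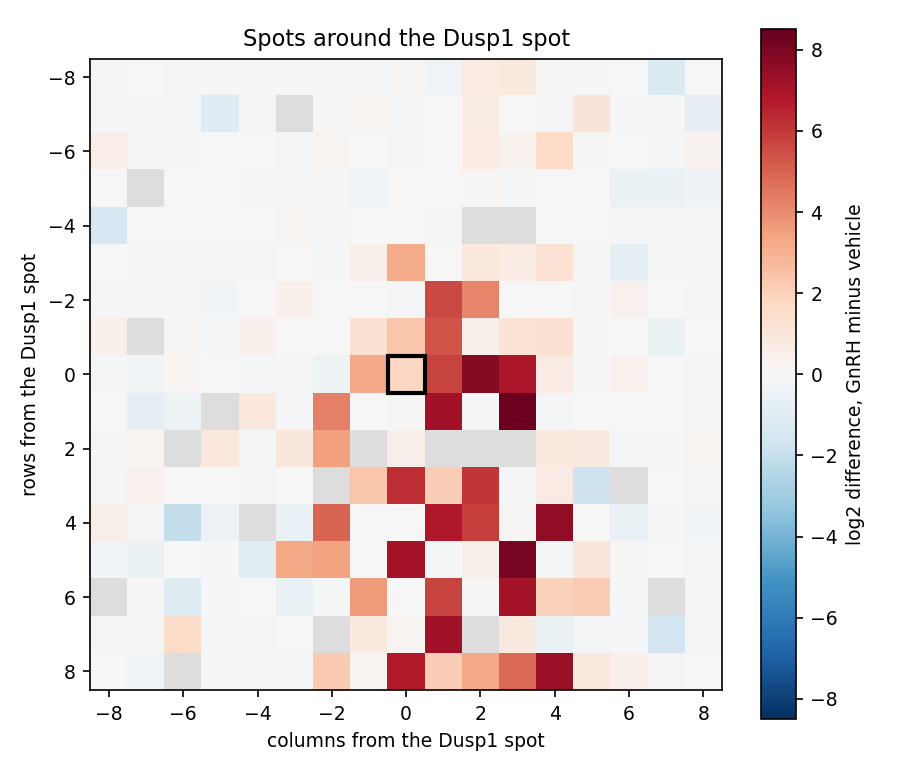
Log2 difference, GnRH minus vehicle, of each spot within 8 rows and columns of the Dusp1 spot (black frame); grey squares are control or outlier spots. The highest values lie in the 4 columns after the Dusp1 spot and in the rows that follow it, and Dusp1 sits near their edge.

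The signal added in the GnRH array was also set out in linear units, as the GnRH signal minus the vehicle signal scaled to the same 75th percentile. Dusp1 had a surplus of 908. Within 1 row and column, the 6 spots under 100 in the vehicle array had surpluses of 39.2 to 1478 with a median of 573. Of these 6, 3 exceeded Dusp1: Foxr1, Tbx19 and the lincRNA interval, at 21.2 to 32.5 units of position. The spots at 11.8 to 12.3 units were all below Dusp1. Their surpluses were 39.2 for Tmem33, 106 for the chr12 interval, 101 for Pex2, 491 for LOC100504508, 467 for Gzf1 and -118 for Sesn1. The sides differed. Within 4 rows, the 5 dim spots of the column before Dusp1 had surpluses of 0.119 to 155. The 3 dim spots of its own column had surpluses of 93.5 to 314. The 6 of the column after it reached 1478, and 3 of those were as high as Dusp1. The Dusp1 surplus thus exceeded that of each dim spot in its own and the preceding column within those rows, and lay inside the range of the following column. It also lay inside the ranges of columns 2 and 3 after it, which reached 1492 and 1911. The pixels of the Dusp1 spot varied by 17.9% in the GnRH array and 18.6% in the vehicle array, and 19.8% of the 1000 spots of like brightness varied as much in the GnRH array. The local background beside the spot was 78 in the GnRH array and 65 in the vehicle array, against medians over the array of 70 in the GnRH array and 69 in the vehicle array. How much of the Dusp1 difference is shared with its neighbours was not tested beyond these values.

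When the neighbour median was subtracted, the Dusp1 difference became -0.99 within 1 row and column, 0.46 within 2, 1.13 within 3 and 1.36 within 4. Subtracting the median surplus of the 8 spots within 1 row and column instead gave 1.40. That choice was made after the data were seen. The size of the Dusp1 difference, and in the smallest window its sign, therefore depended on how the surroundings were treated. Which window best describes Dusp1 was not tested. Spots under 100 in the vehicle array were 12 of the 21 within 2 rows and columns, 27 of 43 within 3 and 45 of 72 within 4. Within 1 row and column they were 6 of 8, at 8.08 to 39.8. Of these 6, 2 did not clear the background in the vehicle array. The 2 bright spots of that window, Pex2 and LOC100504508, differed by 0.06 and 0.13, with surpluses of 101 and 491. That window also leaves out Gzf1 and Sesn1, at 1179 and 2662 in the vehicle array, which were among the nearest spots by position. The spots of the other members had no such surroundings, with neighbour medians within 2 rows and columns of -0.15 to -0.00 over their 12 probes.

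The remaining nuclear enzymes differed by less than 2-fold. Dusp2, which encodes an ERK and p38 phosphatase first known from activated lymphocytes, read 1371 in the GnRH array and 829 in the vehicle array. Its log2 difference was 0.82 ± 0.20, or 1.77-fold (probe on chr2:127163930-127163989, mm9), and 5 of the 1000 genes of nearest signal were as high. Dusp4, which encodes a nuclear phosphatase of ERK and JNK, was dim, at 96.4 in the GnRH array and 55.1 in the vehicle array. Its difference of 0.90 ± 0.24, or 1.87-fold (probe on chr8:35882045-35882104, mm9), was matched by 2 of the 1000 genes of nearest signal, but it was 0.49 with the normexp background correction and 0.49 with no background correction.

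The enzymes that prefer JNK and p38 did not move alike. Dusp8, a gene with high activity in brain, was higher on both of its probes. The brighter probe read 2069 in the GnRH array and 1326 in the vehicle array, a difference of 0.74 ± 0.20, or 1.67-fold. The other probe read 656 in the GnRH array and 438 in the vehicle array, a difference of 0.68 ± 0.20. The probes lie on chr7:149267534-149267593 and chr7:149265961-149266020 (mm9, minus strand) and do not overlap, so they are separate readings of the same RNA. They differed from each other by 0.06 ± 0.29. Among the 1000 genes of nearest signal to the brighter probe, 1 was as high.
The Dusp8 promoter (GRCm38.p6, chr7:142095235-142095534, minus strand, printed in the gene's direction) is shown for its pair of full cAMP response elements, in capitals, the nearer of which begins 63 bases before the start site.
Dusp8 promoter: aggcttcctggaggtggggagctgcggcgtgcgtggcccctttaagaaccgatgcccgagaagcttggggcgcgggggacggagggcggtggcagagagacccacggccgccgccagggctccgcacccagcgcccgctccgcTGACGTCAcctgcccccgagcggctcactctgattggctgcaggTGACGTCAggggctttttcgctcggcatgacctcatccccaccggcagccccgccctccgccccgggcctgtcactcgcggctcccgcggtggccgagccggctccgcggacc
Dusp10, whose product acts on JNK and p38, was the dimmest reading, at 56.9 in the GnRH array and 40.4 in the vehicle array. Its difference of 0.59 ± 0.26, or 1.5-fold (probe on chr1:185898608-185898667, mm9), stood just outside the central 95% of genes of like signal, which ran from -0.63 to 0.56, and 21 of those 1000 genes were as high. Its difference was 0.28 when normexp replaced the scanner's correction and 0.32 when none was made.

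Dusp16, which encodes a JNK-directed phosphatase, had separate probes that gave differences of 0.05 ± 0.20 and 0.34 ± 0.22. The brighter read 4000 in the GnRH array and 4139 in the vehicle array, and the dimmer 97.7 in the GnRH array and 82.6 in the vehicle array. The probes differed from each other by -0.29 ± 0.30, brighter minus dimmer, which is within their combined error, and both lay inside the central 95% of genes of like signal. They lie on chr6:134665783-134665842 and chr6:134668003-134668062 (mm9, minus strand). Dusp14 read 1728 in the GnRH array and 1719 in the vehicle array, a difference of 0.10 ± 0.20 (probe on chr11:83861916-83861975, mm9, minus strand).

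**Figure D4:**
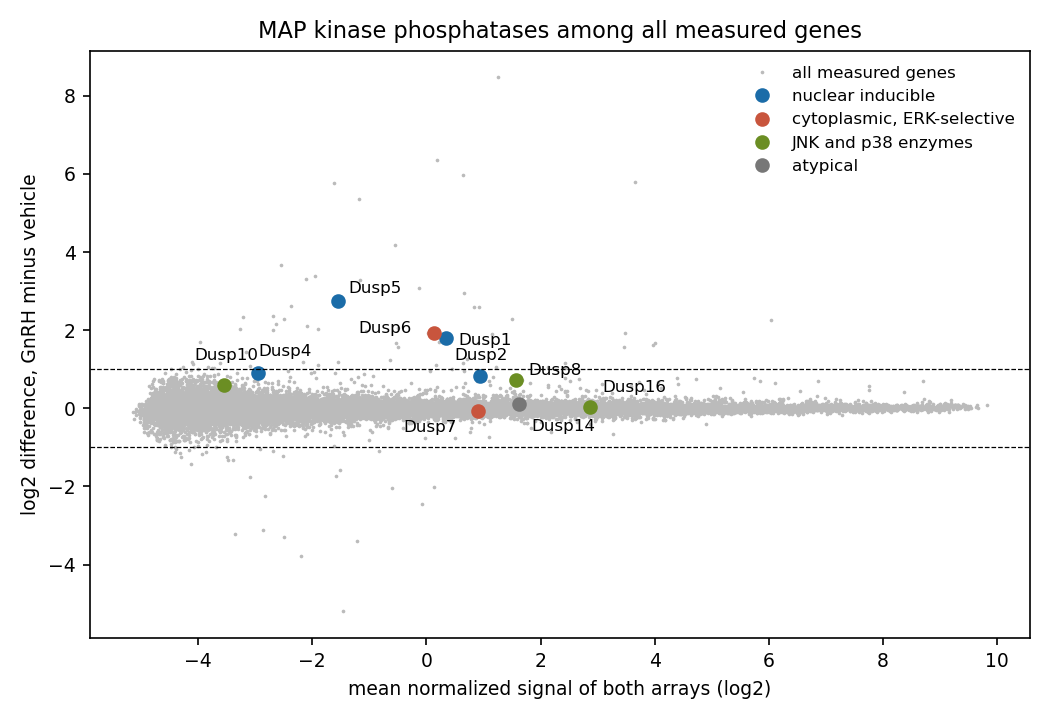
Log2 difference, GnRH minus vehicle, against the mean normalized signal of both arrays for all 21219 measured genes (grey points) and the 10 family members (coloured by enzyme class). Dashed lines mark 2-fold in each direction; 3 members lie above the upper line and none below the lower.

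All 10 members were well above background on both arrays, so none was lost to the filter on dim probes. Of the 10, 3 were at least 2-fold higher in the GnRH array, against 0.311% of all 21219 measured genes, and 7 were at least 1.5-fold higher, against 1.19%. Dusp10 was the seventh and lay at the threshold. The count was 6 with scaling by the median, quantile normalization, the lowess trend removed or the authors' deposited table, and 5 with normexp or no background correction, where Dusp4 was also under 1.5-fold. The 3 past 2-fold were also past 3-fold, against 0.189% of all genes. No member was lower by 1.5-fold, 2-fold or 3-fold, against 0.881%, 0.132% and 0.0613% of all genes at those folds. The median difference of the members was 0.78, beside -0.01 over all measured genes. Without Dusp1, 2 of 9 were at least 2-fold higher and the median was 0.74. The members were chosen with earlier results of these arrays known, so these counts describe them and support nothing further.

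Ordered by difference, the members fell into steps that depended on the processing. Dusp5 exceeded Dusp6 by 0.82 ± 0.30. Dusp6 and Dusp1 were 0.13 ± 0.29 apart, within their combined scanner error, and Dusp1 exceeded Dusp4 by 0.89 ± 0.31. The place of Dusp1 rests on its unadjusted value: with the neighbour median within 2 rows and columns subtracted, Dusp1 was 0.46 and Dusp4 1.06, the opposite order. Dusp4, Dusp2, Dusp8 and Dusp10 followed in that order, with neighbouring gaps of 0.08 to 0.15 that were each smaller than their errors. With normexp Dusp4 (0.49) was below Dusp2 (0.80) and Dusp8 (0.73), and with no background correction Dusp4 (0.49) was likewise below Dusp2 (0.80) and Dusp8 (0.73). Dusp10 exceeded Dusp14 by 0.48 ± 0.33, but that step was lost with normexp, where Dusp10 was 0.28 and Dusp14 0.11, and with no background correction, where they were 0.32 and 0.11. Dusp14, Dusp16 and Dusp7 could not be ordered, with gaps of 0.06 and 0.12 inside errors of 0.29.

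The division by place in the cell gave no stable contrast. The 4 nuclear enzymes had a median difference of 1.35 and the 2 cytoplasmic enzymes 0.92, so nuclear exceeded cytoplasmic by 0.42. Without Dusp1 the nuclear median was 0.90 and the contrast -0.020. The spread inside a class was larger than that between them, since Dusp5 exceeded Dusp2 in the nucleus and Dusp6 exceeded Dusp7 in the cytoplasm. The 3 enzymes that prefer JNK and p38 had a median of 0.59.

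Other genes of the same pathway differed little. Of 16 other dual-specificity phosphatases, 13 were measured and 0 were at least 2-fold higher or lower, with a median of 0.02. The largest difference among them was that of the dim gene Dusp13, at 22.0 in the GnRH array and 38.2 in the vehicle array, a log2 difference of -0.70 ± 0.31. Next were Dusp19 at 0.34 ± 0.26 and Dusp23 at 0.32 ± 0.23. Dusp9, the third cytoplasmic ERK phosphatase gene, did not clear the background in the GnRH or the vehicle array. The kinases that the phosphatases act on were measured for 12 of 13 MAP kinase genes, with 0 past 2-fold and differences of -0.15 to 0.27. Mapk3, which encodes an ERK, differed by -0.01, and the JNK gene Mapk8 by 0.27 ± 0.21. Mapk4, an atypical MAP kinase gene, and Mapk13, a p38 gene, differed by -0.15 and -0.13. All 7 MAP kinase kinase genes were measured and lay between -0.08 and 0.08, with Map2k4 at 0.08, Map2k6 at -0.08 and Map2k1, which encodes an activator of ERK, at -0.05. All 10 genes of kinases activated by MAP kinases lay between -0.16 and 0.08, led in size by Mknk1 at -0.16, then Rps6ka4 at -0.09 and Rps6ka3 at 0.08. Of the tyrosine phosphatases that act on MAP kinases, Ptpn5, a neuronal phosphatase gene, differed by 0.03 and Ptpn7 by 0.30 ± 0.36, and Ptprr was not well above background. Each of these 5 lists held 0 genes past 2-fold in either direction, against 0.311% of all measured genes higher and 0.132% lower. In lists of this size a count of 0 is near those shares and does not set the lists apart.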

How the data were processed

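RNA of 1 GnRH and 1 vehicle sample was read on 1-colour Agilent arrays on the same slide. Per the file headers, spots were read, background-subtracted and detrended in Feature Extraction 10.7.1.1, whereas the submitters' processing notes give 9.5.1.1. The deposited scanner files hold spot intensity on a linear scale with an error estimate. The value table deposited by the authors has the same arrays as linear intensity (medians of 28.4 and 28.4), whose log2 differences correlated at 0.998 with the scanner differences over 29665 probes; how it was normalized is not stated in the labels.

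Control spots and outlier spots (94 on the GnRH array and 121 on the vehicle array) were left out. Log2 processed signals were averaged per probe and each array's 75th percentile was subtracted (541 and 578, in the same order). A gene's value is its brightest probe well above background on both arrays (at least 50% of its spots). Probes were named by accession through RefSeq where possible (27235 probes), and otherwise by the file. Since each group has 1 array there are no p-values, and having 2 arrays limits the precision; genes were counted at 2-fold. No spot was saturated, and 56.9% of spots on the GnRH array and 55.2% on the vehicle array were well above background. Neighbour medians used kept non-control spots within equal numbers of rows and columns of a spot. Rows are staggered and closer together than columns, so these windows are not square in position. Around Dusp1, 2 rows reached 12.3 units of scanner position and 2 columns 42.4.

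Every probe of every member is named, with up to 3 genes of each pathway list and up to 4 neighbours of Dusp1 by size of difference. Pex2 and the other spots nearest to Dusp1 by position were chosen after their values were seen. Dusp9, Ptprr, Mapk3 and Map2k1 were named in addition for their roles. The members, lists and rules were chosen with earlier results of these arrays known. Steps were tested on simulated data. Alternatives changed scaling, background correction (normexp with an offset of 50 in limma 3.58.1), source of values, outliers, filter, probe rule, fold and the treatment of neighbouring spots. Promoters come from RefSeq (GRCm38.p6), which was matched by symbol for 9 of 10 members; 6 motifs were searched: the cAMP response element TGACGTCA and its core TGACG, the AP-1 site TGANTCA, the Egr1 site GCGNGGGCG, the ETS core CCGGAA and the CArG box, all on both strands. The value of 1 MAP kinase gene is not reported here. Whether probes lie in exons or untranslated regions is not assigned, since no mm9 annotation was used here.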

Additional observations from a re-analysis of the deposited data

How the results depend on the processing

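The 3 members at least 2-fold higher were 3 under each planned scaling, background correction, source, filter, probe rule and at 3-fold, 7 at 1.5-fold, and 2 without Dusp1 or without probes in shifted surroundings. With the neighbour median within 2 rows and columns subtracted the count was again 3, but Dusp4 (1.06) had replaced Dusp1 (0.46). Dusp1 was -0.99 with the spots within 1 row and column only. Of those, 6 of 8 were under 100 in the vehicle array, as were 12 of 21 within 2 rows and columns. The 7 members at least 1.5-fold higher ranged from 5 to 7 over the settings, chosen for that fold after the data were seen. Nuclear minus cytoplasmic, 0.42, became -0.10 with that subtraction, -0.020 without probes in shifted surroundings, -0.020 without Dusp1 (chosen after the data were seen) and 0.87 with the stricter filter on dim probes, which leaves out Dusp4. Of 126 values of the other members under the alternatives, 6 moved by more than the scanner error: Dusp4, Dusp5 and Dusp10 with normexp (0.49, 2.02 and 0.28) and with no background correction (0.49, 1.95 and 0.32). The count of other dual-specificity phosphatases past the fold, 0, became 1 with no filter on dim probes and 1 at 1.5-fold. Over all measured genes, the 66 higher and 28 lower became 1259 and 760 with no filter, 253 and 187 at 1.5-fold, and 40 and 13 at 3-fold. The 28 lower became 12 under each of normexp, no background correction and the stricter filter, and 44 once neighbour medians were subtracted. Where no setting's construction shows it, the cause was not tested. Signal over background limits the dim members: replicate spots of like signal varied by 0.17 on the log2 scale for Dusp4 and Dusp10 and by 0.07 for Dusp6. No paired analysis was possible because each group has 1 array.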
